A study of Mus musculus with 4 samples.

Results

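The genes described here are 10 components of protein folding in the endoplasmic reticulum (ER) and of the unfolded protein response: Hspa5, Hsp90b1, Calr, Canx, Pdia3, Pdia4, Pdia6, Dnajb11, Xbp1 and Ern1. They were chosen by symbol, with earlier results of these data known, and all 10 were found among the 32285 genes counted. The data are single-nucleus RNA-seq of the mouse basolateral amygdala (BLA), an emotional learning region of the temporal forebrain, from WT mice and from mice of the DISC1-N genotype (the sample labels write DISC-N), all on the C57BL/6J strain. Every group, WT included, had received tamoxifen intraperitoneally and was collected 6 h later. Each group pooled the BLA of both sides from 5 mice, and each genotype has 2 libraries, replicate 1 and replicate 2. The labels do not give the animals' age, the promoter behind the DISC1-N allele or whether the replicates of a genotype come from separate mice, so p-values measure only the spread between these libraries, which may be technical. The study's design text asks whether BLA cells of DISC1-N mice differ in their transcriptomes, and its title places neurons that express Wfs1, which encodes an ER membrane protein, at its centre. The 10 genes were therefore followed across cell classes, across neuron subtypes, in nuclei with and without a Wfs1 transcript, and between genotypes.

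Proteins bound for the cell surface, for secretion or for organelle membranes are threaded into the ER and folded there. When unfolded proteins accumulate, membrane sensors, among them IRE1α, the product of Ern1, signal to the nucleus. IRE1α cuts the Xbp1 transcript, whose spliced form encodes a transcription factor that, together with ATF6, raises the genes for ER chaperones and folding enzymes. Hspa5 encodes BiP, the ER's main HSP70 chaperone and a brake on the sensors, and Dnajb11 encodes one of its J-domain partners. Hsp90b1 encodes GRP94, the ER's HSP90. Calr and Canx encode calreticulin and calnexin, lectins that hold newly made glycoproteins, and Pdia3 encodes the disulfide isomerase that works with them. Pdia4 and Pdia6 encode other disulfide isomerases. The counts are per gene, so spliced and unspliced Xbp1 are not told apart.

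The promoters of several of these genes carry the ER stress response element (ERSE), the sequence through which ATF6 and spliced XBP1 are known to act together with NF-Y, and they are shown here because they are a feature the genes share beyond their protein products. CCAAT and CCACG with 9 free bases between them were searched on both strands of RefSeq promoters (GRCm38.p6, 250 bases before to 50 after each gene's start). They occurred in 39 of 32851 promoters (0.119%) and in those of 5 of the 10 genes, Hspa5, Hsp90b1, Calr, Canx and Pdia6. The shorter ERSE-II, ATTGG and CCACG with 1 free base between them, occurred in 12 promoters (0.0365%), one of them that of Dnajb11. The 2 elements share the CCACG block and can overlap, and 51 promoters (0.155%) held either. The UPRE letters TGACGTGG occurred in 222 promoters (0.676%) and in none of the 10. No match in Pdia3, Pdia4, Xbp1 and Ern1 says only that these exact letters are not in this window. Capitals mark the fixed letters of the element, each stretch is written 5′ to 3′ on the gene's strand, and a match says nothing of use in these cells.
Hspa5: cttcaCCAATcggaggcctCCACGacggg
Hsp90b1, distal element: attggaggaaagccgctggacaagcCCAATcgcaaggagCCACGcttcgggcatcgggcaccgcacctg
Hsp90b1, proximal element: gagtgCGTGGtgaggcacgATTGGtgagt
Calr: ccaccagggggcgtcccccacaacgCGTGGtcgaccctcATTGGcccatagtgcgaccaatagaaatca
Canx: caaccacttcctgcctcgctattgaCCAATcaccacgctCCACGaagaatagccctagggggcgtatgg
Pdia6: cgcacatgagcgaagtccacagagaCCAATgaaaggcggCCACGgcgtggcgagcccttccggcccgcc
Dnajb11, ERSE-II: cggcgATTGGcCCACGcctgg

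The Hspa5 stretch lies at chr2:34772020-34772048 (+ strand), with the element 65 to 47 bases before the RefSeq start. GENCODE vM21 starts Hspa5 at 34771970, ahead of this stretch, which meets an annotated exon there. Hsp90b1 held a pair of elements in opposite orientations, the distal one at chr10:86705613-86705681 (- strand), 212 to 194 bases before the start, and the proximal one at chr10:86705528-86705556 (- strand), 107 to 89 bases before it. Calr carried the element on the opposite strand at chr8:84847050-84847118 (- strand), 162 to 144 bases before the start. The Canx stretch lies at chr11:50325775-50325843 (- strand), 145 to 127 bases before the start. The Pdia6 stretch lies at chr12:17266466-17266534 (+ strand), 98 to 80 bases before the start. The Dnajb11 element lies just inside the transcript, at bases 8 to 18 after the start, in chr16:22857847-22857867 (+ strand). In the GENCODE vM21 annotation of the same build, Gm15344 overlaps Hsp90b1 on the same strand, so reads could be divided between that pair. Catsper2, Atp6v1c2 and Gm30505 overlap Pdia3, Pdia6 and Dnajb11 on the opposite strand. Reads could be divided between those pairs only if they were counted without regard to strand.

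The 4 libraries held 4654 to 8381 barcodes and 37840301 to 48439711 unique molecular identifier (UMI) counts each, and 25332 of 27313 nuclei were kept after filters on genes, mitochondrial UMIs and doublets. Between 5 and 21 barcodes were shared by any pair of libraries. Nuclei were assigned to classes by marker genes that do not include the 10 genes, and levels are UMIs summed over the nuclei of a class and library, scaled to the total of that sum (CPM). The classes were excitatory neurons (5486 nuclei), inhibitory neurons (4309), astrocytes (2837), oligodendrocytes (2283), oligodendrocyte precursors (1876), microglia (1386) and mural cells (124), and 6801 nuclei had no class. Near the gate's cut lay 2050 of the excitatory and 2018 of the inhibitory nuclei. The gate used these markers, so a high level of a class's own markers follows from it and is no check of it. Precursor markers summed to 8669.9 to 12686 CPM in precursors, and microglial markers to 5893 to 9437 CPM in microglia. Neurons also held precursor markers. Excitatory nuclei had a median of 6 UMIs of precursor markers and 8 of their own, and inhibitory nuclei 3 and 5. Excitatory neuron markers, which glia should lack, summed to 96.4 to 298 CPM in precursors and 188 to 525 in microglia, against 869 to 929 in excitatory neurons, and were highest in the replicate 1 libraries. Their part in the glial levels was not tested. Per the file headers, replicate 1 was counted with Cell Ranger 7.0.0 and replicate 2 with 6.0.2, so the replicate number goes with the software version, balanced over genotype.

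Oligodendrocyte precursors, dividing glia that give rise to myelin-forming cells, held the highest levels of most of these genes among the 6 larger classes, and excitatory neurons the lowest. Of the 10 genes, 7 had their highest mean level of these 6 in precursors, and 8 their lowest in excitatory neurons. Mural cells, whose sums held 28 to 45 UMIs of the 10 genes per library, were left out of every order given here. Their mean levels of Hspa5, Hsp90b1 and Pdia4 (127, 278 and 46.1 CPM) were above those of precursors, and that of Ern1 (19.5 CPM) was below that of excitatory neurons. Against the mean of the other classes within each library, 8 of the 10 were higher in precursors (edgeR quasi-likelihood test, Benjamini-Hochberg adjusted p under 0.05), where 19.4% of all 13329 genes tested were called higher, and none was lower. In excitatory neurons 7 of the 10 were lower, where 23.5% of all genes were. The median log2 difference of the 10 was 0.60 in precursors and -0.37 in excitatory neurons, beside medians over all genes of 0.10 and 0.20. These values are from a fit that scales by TMM and includes the scarce mural cells. Without mural cells the all-gene medians were -0.01 and 0.02, and the same counts, 8 and 7, were called. Of all genes tested, 50.3% were called in either direction in inhibitory neurons, 42.9% in astrocytes, 40.0% in oligodendrocytes, 43.1% in microglia and 10.6% in mural cells, where 2, 2, 2, 4 and 1 of the 10 were.

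**Figure D1:**
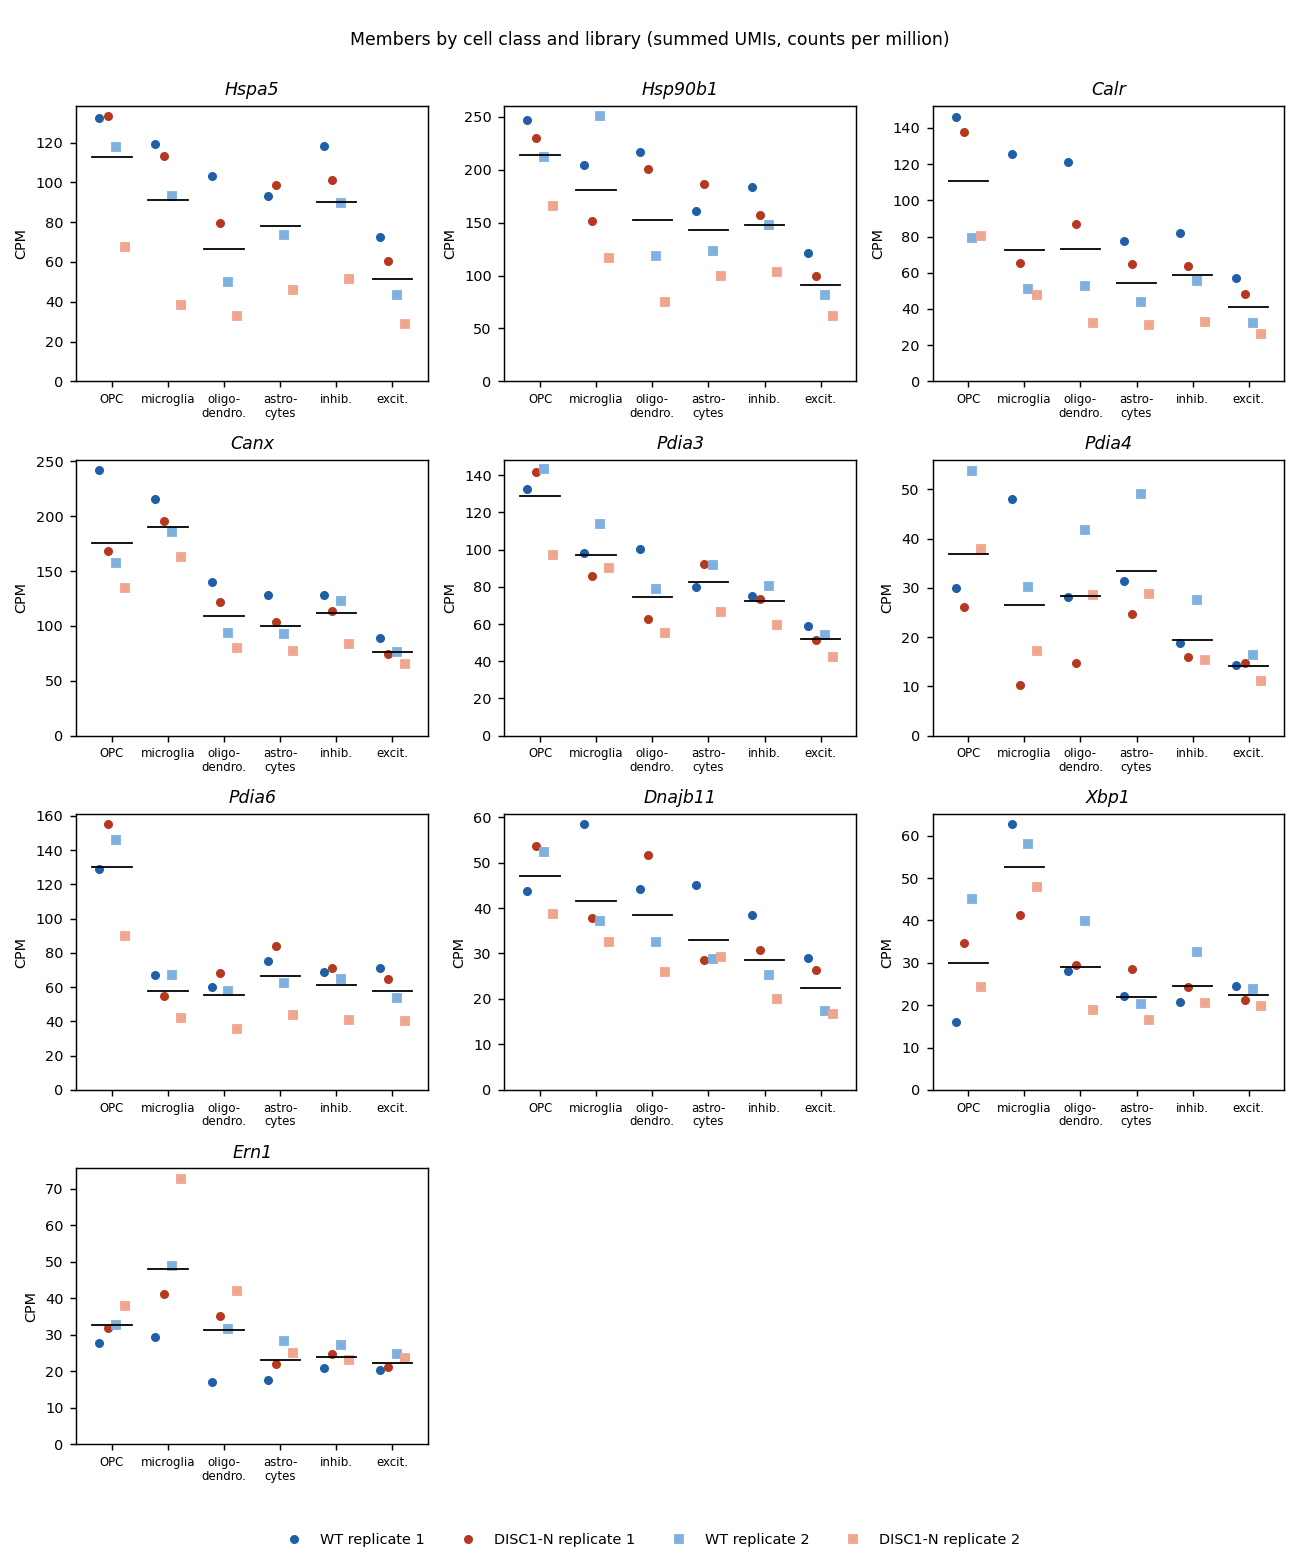
CPM of each of the 10 genes (y axis, from 0) in 6 cell classes (x axis; OPC, oligodendrocyte precursors), with 1 point per library and a line at the mean of the 4. Hspa5, Calr, Pdia3 and Pdia6 were highest in precursors in all 4 libraries, and Xbp1 and Ern1 in microglia.

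BiP and its partners followed that order. Hspa5 stood in precursors at 132 and 118 CPM for WT (replicate 1, then 2) and 133 and 67.6 for DISC1-N. In excitatory neurons it stood at 72.7 and 43.2 for WT and 60.5 and 28.7 for DISC1-N. Precursors were above and excitatory neurons below every other of these 6 classes in each library. Its log2 difference was 0.59 ± 0.10 (SE; adjusted p = 3.02e-05) in precursors and -0.46 ± 0.09 (adjusted p = 0.000121) in excitatory neurons. Inhibitory neurons, at 90.1 ± 28.2 CPM (SD, n = 4 libraries), were also higher than the mean of the other classes (0.32 ± 0.09, adjusted p = 0.00382). In that TMM-scaled fit the neuron classes thus lay on opposite sides of the mean. The order by CPM can differ from the fit: microglia, with a mean of 90.9 CPM, stood at -0.15 ± 0.13 in it (adjusted p = 0.372). Oligodendrocytes, the mature descendants of the precursors, were lower (-0.34 ± 0.12, adjusted p = 0.0174). The full order of mean levels was precursors, microglia, inhibitory neurons, astrocytes, oligodendrocytes and excitatory neurons, and microglia against inhibitory neurons and astrocytes against oligodendrocytes changed order in 1 library each. Hsp90b1 ranged over libraries from 166 to 247 CPM in precursors and from 61.5 to 122 in excitatory neurons, and was called in both (0.54 and -0.60). Precursors led in 3 of 4 libraries, with microglia above them in WT replicate 2, and between these ends microglia, oligodendrocytes, inhibitory neurons and astrocytes overlapped. Dnajb11, the J-domain partner, stood at 47.1 ± 7.09 CPM in precursors and 22.3 ± 6.31 in excitatory neurons, called higher (0.62, adjusted p = 0.00131) and lower (-0.37, adjusted p = 0.0166).

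The lectins of the glycoprotein-folding cycle and their isomerase were again high in precursors. Calr stood in precursors at 146 and 79.2 CPM for WT (replicate 1, then 2) and 138 and 80.5 for DISC1-N. In oligodendrocytes, the next class, it stood at 121 and 53.0 for WT and 86.7 and 32.2 for DISC1-N. Precursors were higher in each library, and the log2 difference from the mean of the other classes was 1.00 ± 0.11 (adjusted p = 2.32e-08). Canx differed from the other lectin in its order: it was highest in microglia, at 215 and 186 for WT and 196 and 163 for DISC1-N, with precursors next, at 242 and 157 for WT and 168 and 134 for DISC1-N. Microglia led in 3 of the 4 libraries, and both classes were called higher (0.63 ± 0.11, adjusted p = 1.57e-05, and 0.79 ± 0.10, adjusted p = 1.02e-07). Pdia3, which works with both lectins, stood in precursors at 132 and 143 for WT and 142 and 97.2 for DISC1-N, above microglia, its next class, in each library (0.77 ± 0.11, adjusted p = 2.64e-06). All 3 genes were lower in excitatory neurons than in any other of the 6 classes in each library, at 40.9 ± 14.3, 75.9 ± 9.79 and 51.8 ± 6.98 CPM (SD, n = 4).

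The remaining disulfide isomerases separated the glia further. Pdia6 stood in precursors at 129 and 146 for WT and 155 and 89.6 for DISC1-N, above every other class in each library, and its log2 difference of 1.12 ± 0.10 (adjusted p = 1.12e-10) was the largest of the 10 in that class. The other 5 classes lay close together, with means between 55.4 and 66.5 CPM. In the TMM-scaled fit, excitatory neurons were near the mean of all other classes (0.06 ± 0.09, adjusted p = 0.596). Pdia6 was called lower there in microglia (-0.54 ± 0.14, adjusted p = 0.00241) and oligodendrocytes (-0.31 ± 0.12, adjusted p = 0.0417). In CPM, which is not scaled by TMM, microglia and excitatory neurons had nearly the same mean, 57.8 and 57.5. Pdia4 was called higher in precursors (0.59) and astrocytes (0.45, adjusted p = 0.0458) and lower in both neuron classes (-0.72 and -0.42). It rests on few UMIs in glia, 3 of them in the DISC1-N replicate 1 microglia.

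The sensor arm had another order. Ern1 and Xbp1 were the genes not called in precursors (0.35 ± 0.19 and 0.03 ± 0.19, adjusted p = 0.181 and 0.967), and both were highest in microglia among the 6 classes in each library. Xbp1 stood in microglia at 62.7 and 58.1 for WT and 41.2 and 47.9 for DISC1-N, with a log2 difference of 0.68 ± 0.21 (adjusted p = 0.0085). Ern1 stood there at 29.3 and 48.8 for WT and 41.2 and 72.8 for DISC1-N, with 0.73 ± 0.21 (adjusted p = 0.00633). Microglia of each library carried more of both transcripts than any other of the 6 classes, but on 12 to 38 UMIs per library. Xbp1 was lower in astrocytes (-0.57 ± 0.19, adjusted p = 0.0177), and below microglia each pair of neighbours in the order of either gene changed places in 1 or 2 libraries. In mural cells, Canx was called lower (-1.26, adjusted p = 0.00827), on 2 to 4 UMIs per library and beside an all-gene median of -0.49, and no other of the 10 was called there.

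**Figure D2:**
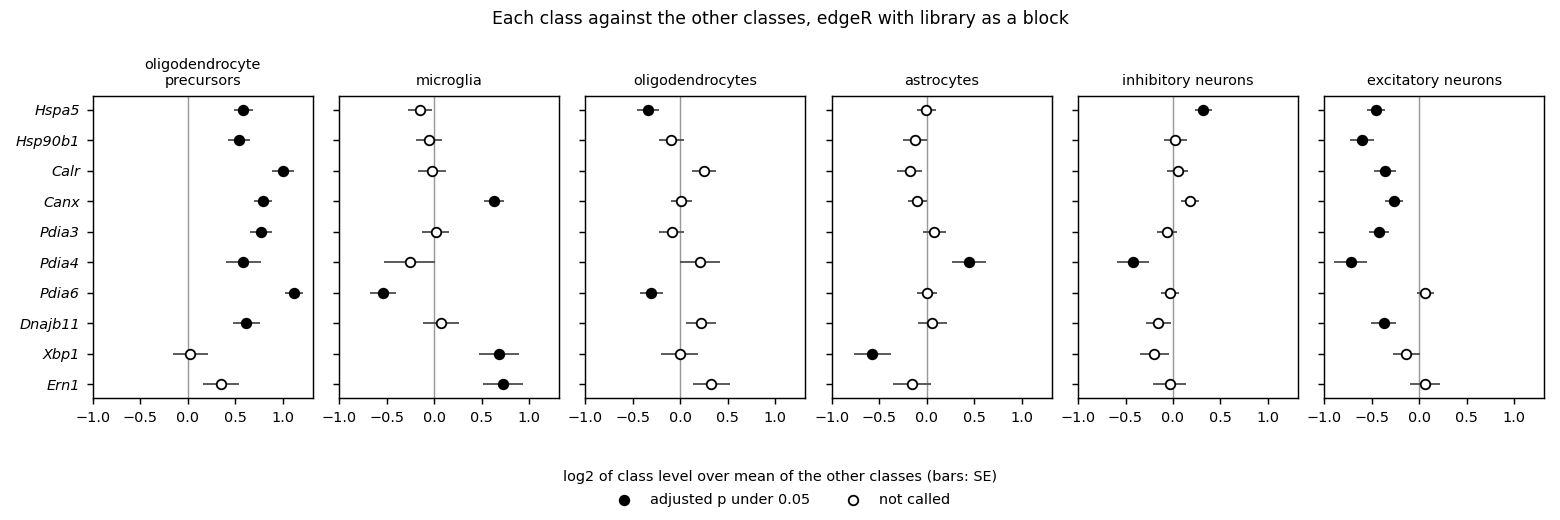
Log2 difference of each gene between 1 class and the mean of the other classes (x axis), with SE bars, from the fit with library as a block, in 1 panel per class. Filled points passed an adjusted p under 0.05: 8 of 10 to the right of 0 in precursors and 7 of 10 to the left in excitatory neurons.

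Mitochondrially encoded and ribosomal protein transcripts, which are made or used outside the nucleus, also differed between these sums. In precursors they summed to 832 to 3933 and 5744 to 11254 CPM, and in excitatory neurons to 209 to 1162 and 2277 to 3856. Oligodendrocytes held more of both in each library, 1237 to 5293 and 7272 to 13982 CPM, than precursors. Hspa5, Calr, Canx, Pdia3 and Pdia6 were lower in oligodendrocytes than in precursors in each library. Xbp1 was lower in oligodendrocytes than in precursors in 3 of 4 libraries, and Ern1 in 2 of 4. Mean levels of Hsp90b1, Pdia4 and Dnajb11 were 153, 28.3 and 38.6 CPM in oligodendrocytes and 214, 36.9 and 47.1 in precursors. The part of mitochondrially encoded and ribosomal protein transcripts in the difference between classes was not tested. Nuclei were also thinned to 1000 UMIs each, and shallower nuclei were dropped, among them 567 of 1386 microglia and 332 of 2283 oligodendrocytes. In those sums the 8 genes called in precursors were again 8, and 6 were called lower in excitatory neurons. With the WT libraries alone, which leaves 2 libraries per class, 5 and 2 were called.

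Other genes of the pathway, in 4 lists written without regard to direction but with earlier results of these data known, were set beside the 10 in the same fit. In precursors, 9 of 23 tested folding partners were higher and none lower (median 0.35), beside the 19.4% of all genes called higher in that class, led by Ppib, an ER cyclophilin (1.10 ± 0.11, adjusted p = 1.20e-09), Uggt2, of the glycoprotein glucosyltransferase family (1.17 ± 0.14, adjusted p = 1.20e-07), and Creld2 (1.23 ± 0.25, adjusted p = 0.000313). Of 16 translocon and glycosylation genes, 10 were higher and none lower (median 0.43), among them Rpn1 and Ddost, subunits of oligosaccharyltransferase (1.05 ± 0.13 and 1.10 ± 0.16). The remaining lists had no more calls than the share over all genes: ER-associated degradation had 2 of 14 higher, Os9 and Erlec1, both lectins of that pathway (1.08 ± 0.13 and 0.46 ± 0.09), and sensors and transcription factors 1 of 10, Creb3l2 (0.58 ± 0.22, adjusted p = 0.0496). Over the 4 lists, 22 of 63 tested genes were higher in precursors and none was lower.

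Excitatory neurons were split over the same lists, in a class where 35.6% of all genes were called higher and 23.5% lower. Of 16 translocon and glycosylation genes, 9 were lower and none higher, with Sec61g, a subunit of the translocation channel, at -1.15 ± 0.14 and Spcs1, of signal peptidase, at -1.08 ± 0.13. Folding partners ran both ways, 9 higher and 5 lower of 23: Ero1lb, an oxidase that recharges disulfide isomerases, and Uggt2 were higher (1.38 ± 0.12 and 1.23 ± 0.13). Among the sensors, Atf6 was higher (0.57 ± 0.12), and Creb3l2 and Ddit3, which encodes CHOP, were lower (-2.51 ± 0.27 and -1.69 ± 0.23). In microglia, where 25.7% of all genes were called higher and 17.4% lower, the 4 lists together had 13 of 63 higher and 11 lower, near or below those shares. There 4 of 10 sensors and transcription factors and 6 of 14 degradation genes were higher, with Mbtps2, a protease that releases ATF6, at 1.05 ± 0.19 and Edem1 at 2.25 ± 0.21, and 6 of 23 folding partners were lower, with Ppib at -1.21 ± 0.15.

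Within neurons, subtypes were gated on their own genes and compared with the other subtypes of the same transmitter class. Among 4 inhibitory subtypes, nuclei with Foxp2 and Penk stood highest and nuclei with Adarb2 but no Vip lowest. In Foxp2 and Penk nuclei 5 of the 10 genes were higher, where 14.1% of 9680 genes were, and in Adarb2 nuclei 4 were lower, where 3.43% of genes were. None of the 10 was called in the Sst or the Vip subtype, where 17.8% and 13.5% of genes were. Hspa5 stood in Foxp2 and Penk nuclei at 177 and 159 CPM for WT (replicate 1, then 2) and 166 and 91.0 for DISC1-N. In Adarb2 nuclei it stood at 137 and 68.4 for WT and 86.9 and 42.9 for DISC1-N. The first subtype was higher in each library, and the log2 differences from the other subtypes were 0.76 ± 0.13 (adjusted p = 2.09e-05) and -0.46 ± 0.12 (adjusted p = 0.00619). Hsp90b1, the ER's HSP90, stood at 339 and 198 for WT and 309 and 148 for DISC1-N in Foxp2 and Penk nuclei, against 181 and 118 for WT and 138 and 95.9 for DISC1-N in Adarb2 nuclei (0.61 ± 0.13 and -0.54 ± 0.12, adjusted p = 0.000382 and 0.00175). Calr and Pdia6 were likewise higher in the first (0.56 ± 0.18 and 0.45 ± 0.13) and lower in the second (-0.51 ± 0.15 and -0.62 ± 0.11). Pdia3 was higher in the first (0.53 ± 0.15, adjusted p = 0.00888) and stood at -0.29 ± 0.13 in the second (adjusted p = 0.191). The Foxp2 and Penk sums held 48 to 70 nuclei in the replicate 1 libraries. Of the 9 calls, Hspa5 and Calr in Foxp2 and Penk nuclei held with the WT libraries alone, and Hsp90b1 in both subtypes with nuclei thinned to 1000 UMIs. Calr fell below the filter on low counts in the thinned sums and was not tested there. Without WT replicate 2, 5 pairs of gene and subtype were called.

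**Figure D3:**
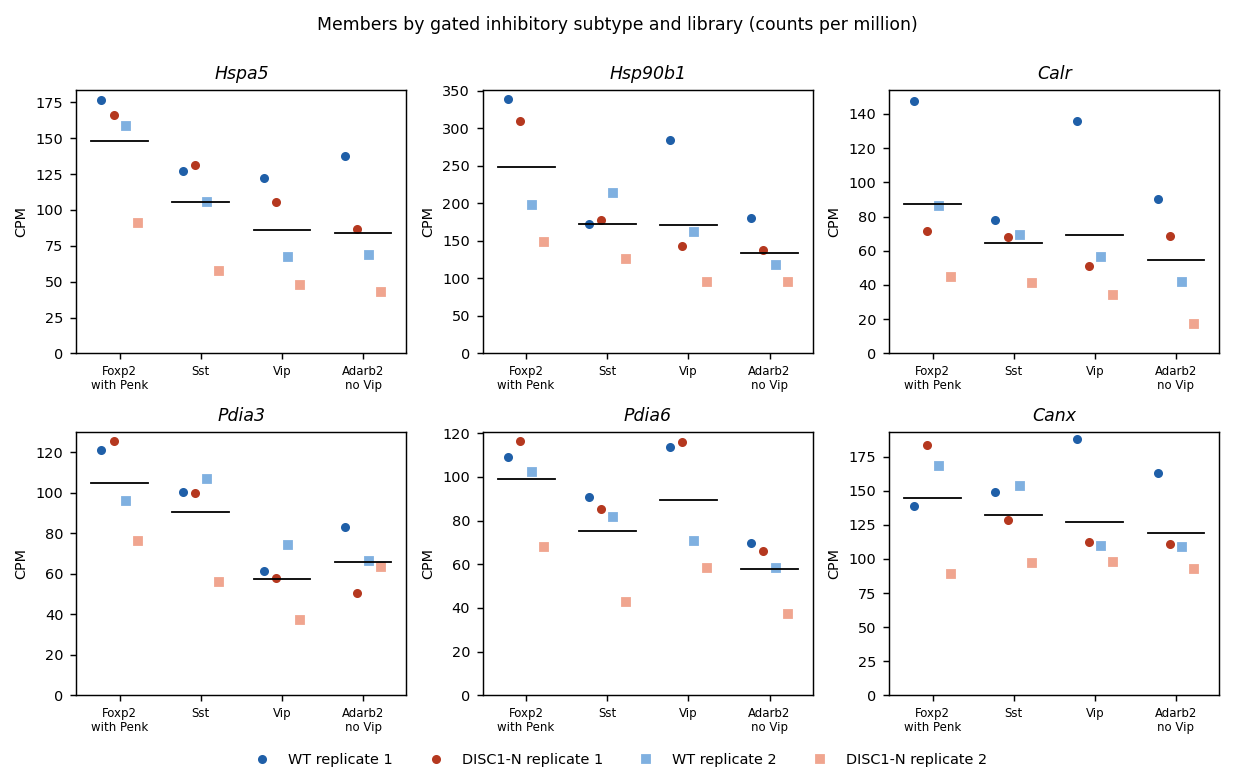
CPM (y axis, from 0) of 6 of the genes in 4 gated inhibitory subtypes (x axis), with 1 point per library and a line at the mean of the 4. For Hspa5 and Hsp90b1, nuclei with Foxp2 and Penk lie above Adarb2 nuclei without Vip in each library.

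Other genes of the pathway were also called in those subtypes. In Foxp2 and Penk nuclei, 6 of 16 translocon and glycosylation genes were higher and none lower, led by Ssr1, of the translocon-associated complex (1.08 ± 0.16, adjusted p = 2.02e-06), and 3 of 21 folding partners were higher, among them Sil1, the nucleotide exchange factor of BiP (0.62 ± 0.15), with Uggt2 lower (-0.71 ± 0.13). In Adarb2 nuclei, Rpn1 (-0.61 ± 0.13), Ssr1 (-0.56 ± 0.15), Spcs3 (-0.55 ± 0.17) and Fkbp2 (-0.43 ± 0.12) were lower, the 4 genes called of 58 tested. Among 5 excitatory subtypes 2 of 50 tests were called, and none in the 3 marked by Rspo2 with Col5a2, by Rorb and by Cux2 with Htr7 or Col26a1, where 10.3%, 12.6% and 3.75% of genes were called. Hspa5 was lower in nuclei with Rspo2 and Adamts2 (-0.42 ± 0.13, adjusted p = 0.0238, 5.55% of genes lower), at 58.2 and 28.1 for WT and 41.5 and 25.2 for DISC1-N. Dnajb11 was higher in nuclei with Glis3 and Col12a1 or Otof (0.67 ± 0.23, adjusted p = 0.0445, 7.11% of genes higher), on 7 to 22 UMIs per library. Neither call held with the WT libraries alone or with no filter on low counts. With nuclei thinned to 1000 UMIs, both genes fell below the filter on low counts and were not tested.

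None of the 10 genes was called between neurons with and without a Wfs1 UMI. A Wfs1 UMI was found in 6.94 to 14.6% of excitatory and 13.5 to 18.0% of inhibitory nuclei per library, and in 25 of 1386 microglia, which had a median of 1071 UMIs per nucleus against 9127 in excitatory and 4538 in inhibitory neurons. Depth sets much of such a share, so no level of Wfs1 is read from it. Excitatory nuclei with one were deeper, with median UMIs per library of 9200.0 to 15426, against 8394 to 9645 without. Hspa5 in excitatory nuclei with a Wfs1 UMI stood at 75.4 and 57.7 CPM for WT (replicate 1, then 2) and 65.1 and 38.6 for DISC1-N. In nuclei without one it stood at 72.0 and 41.9 for WT and 59.1 and 27.8 for DISC1-N. The level was higher with Wfs1 in each of the 4 libraries, by 0.21 ± 0.08 on the log2 scale, which did not pass over all genes (adjusted p = 0.287). Canx was likewise higher in each library (0.10 ± 0.06, adjusted p = 0.68), and Hsp90b1 in 3 of 4 (0.16 ± 0.07, adjusted p = 0.349). The rest did not share this direction. Calr, Pdia3, Pdia4 and Dnajb11 were each higher with Wfs1 in 1 of 4 libraries, and Pdia6, Xbp1 and Ern1 in 2 of 4. In the same edgeR fit, 160 of 14901 genes (1.07%) were called. An unadjusted p under 0.05 was found for 2 of the 10, with no share over all genes at that level set beside it. In inhibitory neurons 11.6% of 12303 genes were called, none of the 10 had an unadjusted p under 0.05, and Hspa5 stood at 0.15 ± 0.11 (adjusted p = 0.454). No gene of the 4 pathway lists was called in either class. With nuclei matched on depth within each library, again none of the 10 was called in either class.

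Between genotypes, most of the 10 transcripts measured lower in neurons of the DISC1-N library than of the WT library of the same replicate number, but none passed the test of genotype alone. In excitatory neurons 8 of the 10 genes were lower in both replicate numbers, a pattern shown by 28.7% of all genes tested, with a median change of the 10 of -12.9% in replicate 1 and -20.3% in replicate 2. Over all genes the medians were -0.586% and -0.849%. In replicate 1, Hspa5 measured 72.7 CPM in excitatory neurons of WT and 60.5 in those of DISC1-N, and in replicate 2, 43.2 and 28.7. Both DISC1-N values were below the WT value of their own number, but the genotypes overlapped, since the replicate 1 DISC1-N value was above the replicate 2 WT value. Hsp90b1 showed the same arrangement, 122 against 100.02 CPM and 81.4 against 61.5. Canx, Pdia3 and Xbp1 did not overlap between genotypes. Canx measured 88.7 and 75.9 CPM for WT and 74.1 and 64.9 for DISC1-N. Pdia3 measured 58.9 and 54.3 for WT and 51.6 and 42.3 for DISC1-N, and Xbp1 at 24.6 and 23.9 against 21.3 and 19.8. Such a separation was found in 8.64% of all genes. Pdia4 and Ern1 were lower in replicate 2 only.

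**Figure D4:**
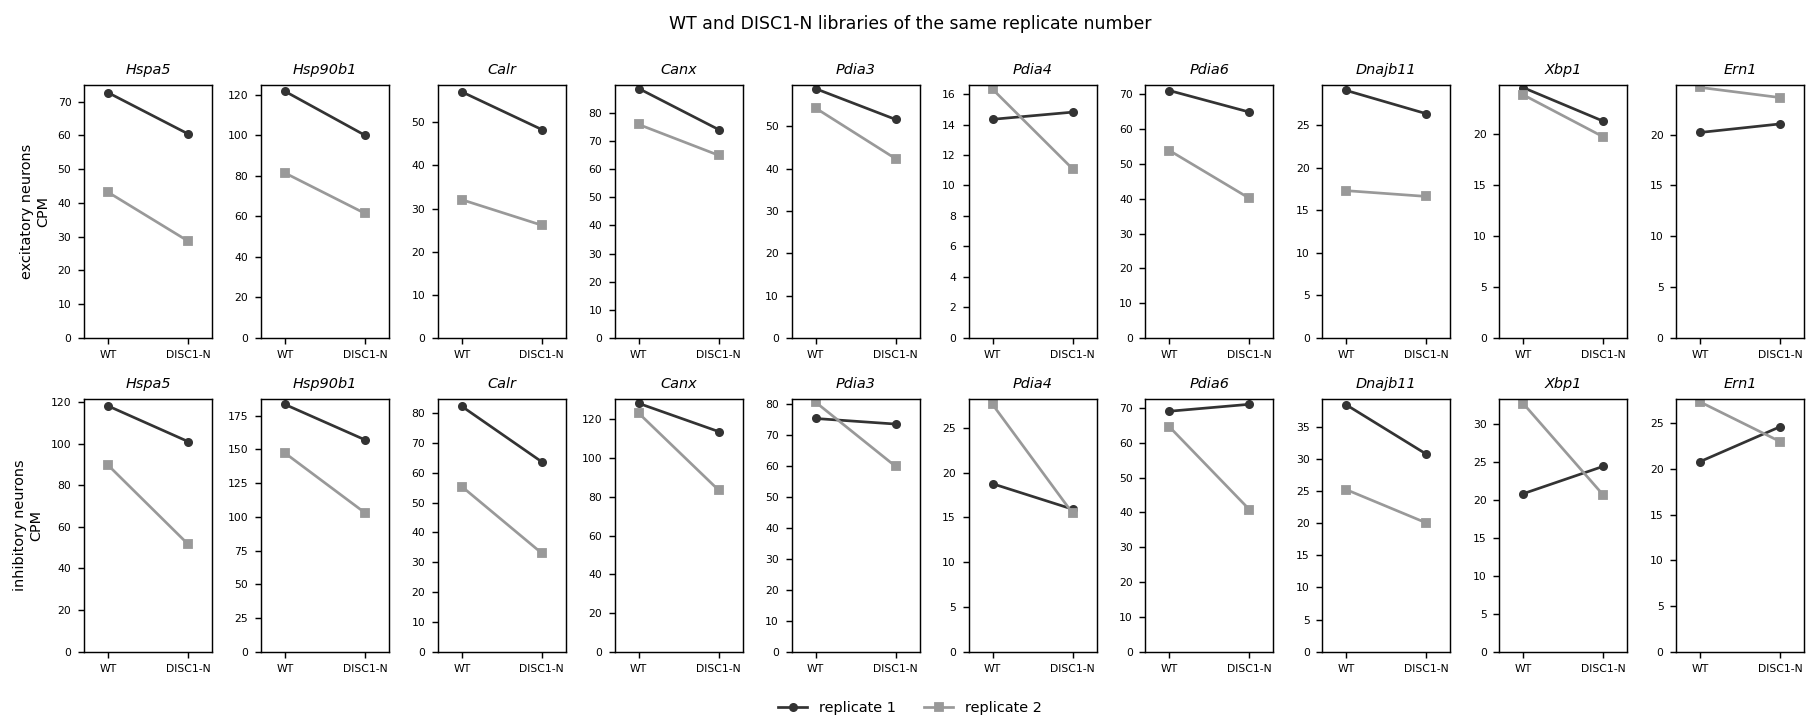
CPM of each gene (y axis, from 0) in the WT and DISC1-N library of replicate 1 (dark circles) and of replicate 2 (grey squares), in excitatory (top) and inhibitory neurons (bottom). Lines join libraries of the same number; for Hspa5 and Hsp90b1 both lines fall in both classes while the replicate 1 line lies above the replicate 2 line.

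Whether these differences passed the test depended on how the replicate number was treated. With genotype alone in the edgeR fit, 0 of 16792 genes (0.0%) were called in excitatory neurons, 90 had an unadjusted p under 0.05 and none of the 10 was among them. DESeq2 and limma-voom also called 0. Hspa5 stood at -0.38 ± 0.35 and Hsp90b1 at -0.33 ± 0.25 (adjusted p = 1 for both). With the replicate number as a term, which leaves 1 residual degree of freedom, 48 genes were called, 29 of them lower (0.173% of genes tested). Hspa5 (-0.40 ± 0.09, adjusted p = 0.0482) and Hsp90b1 (-0.34 ± 0.07, adjusted p = 0.0469) were among them. The other 8 genes did not pass. An unadjusted p under 0.05 was found for 7 of the 10, a count with no share over all genes set beside it. Calr, Canx, Pdia3 and Pdia6 lay between -0.27 and -0.24 (adjusted p = 0.246 to 0.307), and Ern1 at 0.00. Among nuclei under 0.1% mitochondrial UMIs the same blocked fit called 8 genes and none of the 10, with Hspa5 at -0.27. With genotype alone and without DISC1-N replicate 2, Hspa5 stood at 0.02. That fit sets DISC1-N replicate 1 against WT libraries of both numbers, so genotype and replicate number are mixed in it.

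In inhibitory neurons, 7 of the 10 were lower in both replicate numbers (29.7% of all genes), with a median change of -12.8% in replicate 1 and -34.6% in replicate 2. Hspa5 measured 118 CPM for WT and 101 for DISC1-N in replicate 1, and 89.6 and 51.6 in replicate 2. Calr stood at 82.2 and 63.6, and at 55.4 and 33.0. Both overlapped between genotypes. Canx, at 128 and 123 CPM for WT and 114 and 83.4 for DISC1-N, and Pdia4, at 18.7 and 27.6 for WT and 15.9 and 15.5 for DISC1-N, did not, nor did Pdia3, a separation found in 11.3% of all genes. With genotype alone, edgeR called 0 of 14734 genes (0.0%), 111 had an unadjusted p under 0.05 and none of the 10 did; DESeq2 and limma-voom called 0. With the replicate number as a term, 197 genes were called, 138 lower (0.937%), and 5 of the 10 were among the lower: Hspa5 (-0.49 ± 0.09, adjusted p = 4.94e-05), Calr (-0.54 ± 0.10, adjusted p = 0.000124), Hsp90b1 (-0.36 ± 0.08, adjusted p = 0.00221), Canx (-0.36 ± 0.09, adjusted p = 0.00491) and Pdia4 (-0.58 ± 0.16, adjusted p = 0.0317). That count was 1 (Calr) with the stricter gate, and 0 with classes taken from clusters, with sums thinned to one depth, without the deepest nuclei or under 0.1% mitochondrial UMIs, each with the same term. The last of these kept 133 of 834 inhibitory nuclei in WT replicate 1. The direction of the 5 stayed downward in each of those fits. The replicate term leaves 1 residual degree of freedom here too. The p-values of the blocked edgeR fits therefore rest largely on variance pooled over genes, not on each gene's own spread.

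Few other genes of the pathway passed in the blocked fits. In excitatory neurons 1 of 67 tested genes of the 4 lists was called, Rpn1 (-0.48 ± 0.10, adjusted p = 0.0403), and 47 of 67 lay below 0 (median -0.06). In inhibitory neurons 3 of 64 were called, all lower: Erp29, an ER folding factor of the disulfide isomerase fold (-0.39 ± 0.10, adjusted p = 0.00851), Sec62, of the translocon (-0.33 ± 0.08, adjusted p = 0.0107), and Ssr2 (-0.43 ± 0.12, adjusted p = 0.0461). Sensors and transcription factors had no call in either class. Their lowest unadjusted p belonged to Chac1 in excitatory neurons (1.11 ± 0.49, adjusted p = 0.6) and Ppp1r15b in inhibitory neurons (-0.43 ± 0.29, adjusted p = 0.72), and their medians were 0.04 and -0.07.

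In glia none of the 10 was called with or without the replicate term, which called 0.0954% of genes in astrocytes, 0.0195% in oligodendrocytes, 0.0093% in precursors and 0.0% in microglia. Microglia were lower in both replicate numbers for 9 of the 10 genes (26.3% of all genes tested there), with Hsp90b1 at 205 and 251 for WT and 151 and 117 for DISC1-N CPM and Pdia4 at 48.1 and 30.2 for WT and 10.3 and 17.2 for DISC1-N, and 5 of the 10 did not overlap between genotypes (11.0% of all genes). Ern1 was the exception, at 29.3 and 48.8 for WT and 41.2 and 72.8 for DISC1-N. Ern1 was also higher in DISC1-N in both replicate numbers in oligodendrocytes (17.0 and 31.6 for WT and 35.1 and 42.0 for DISC1-N) and precursors (27.8 and 32.7 for WT and 31.9 and 38.0 for DISC1-N). In astrocytes and precursors 3 of the 10 were lower in both numbers, 29.5% and 29.3% of all genes being so. There the replicates went apart: the median change of the 10 in astrocytes was 8.76% in replicate 1 and -23.4% in replicate 2, and in precursors 3.94% and -27.7%. In oligodendrocytes 6 of the 10 were lower in both (27.2%). The genotype difference of excitatory neurons was set against that of each of 6 other classes. None of 60 such interactions was called by edgeR, without or with the replicate term (1 and 6 at an unadjusted p under 0.05), so the classes were not shown to differ. With the term, the shares of all genes called were 0.0538% against inhibitory neurons, 0.119% against astrocytes, 0.0799% against oligodendrocytes, 0.187% against precursors, 0.0537% against microglia and 0.0132% against mural cells. Over 9 neuron subtypes, none of 81 tests was called, with 5 and 15 at an unadjusted p under 0.05, and 68 lay below 0. No share over all genes was set beside the unadjusted counts of interactions and subtypes or this direction, so no excess is read from them. With the term, 0.367% of genes were called in Adarb2 nuclei without Vip, 0.0299% in Foxp2 and Penk nuclei, 0.139% in Sst nuclei, 0.276% in Vip nuclei and, over the excitatory subtypes, 0.0595%, 0.184%, 0.294%, 0.13% and 0.0629%. The lowest adjusted p with the term was that of Hspa5 in Adarb2 nuclei without Vip (-0.64 ± 0.17, adjusted p = 0.0541).

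Mitochondrially encoded transcripts, which arise outside the nucleus, were lower beside the chaperones in DISC1-N neurons. The 10 genes summed in excitatory neurons to 558 and 423 for WT and 483 and 335 for DISC1-N (replicate 1, then 2), and mitochondrially encoded transcripts to 1162 and 396 for WT and 588 and 209 for DISC1-N. In inhibitory neurons the sums of the 10 were 755 and 673 for WT and 676 and 451 for DISC1-N, and the mitochondrial sums 2159.9 and 739 for WT and 1193 and 475 for DISC1-N. Ribosomal protein transcripts were 3856 and 2659 for WT and 3797 and 2277 for DISC1-N in excitatory and 5778 and 3981 for WT and 5043 and 3405 for DISC1-N in inhibitory neurons. In glia of replicate 1, mitochondrial transcripts measured 3933 CPM in WT and 2803 in DISC1-N precursors, and 3361 and 2554 in astrocytes. They measured 5293 and 4081 in oligodendrocytes and 4400 and 3283 in microglia. The 10 genes there summed to 1147 and 1113 in precursors and 731 and 734 in astrocytes. Their sums were 859 and 751 in oligodendrocytes and 1028 and 797 in microglia. In replicate 2, both measures were lower in DISC1-N oligodendrocytes, at 598 and 427 CPM for the 10 genes and 1259 and 1237 for mitochondrial transcripts. In the other glia of replicate 2 they parted. In precursors the 10 genes summed to 1039 CPM in WT and 774 in DISC1-N while mitochondrial transcripts were 832 and 909.8, in astrocytes they summed to 614 and 464 while mitochondrial transcripts were 728 and 842, and in microglia to 936 and 669 while mitochondrial transcripts were 1313 and 1635. The part of these transcripts in the neuronal difference was not tested beyond the fits under 0.1% mitochondrial UMIs given above.

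**Figure D5:**
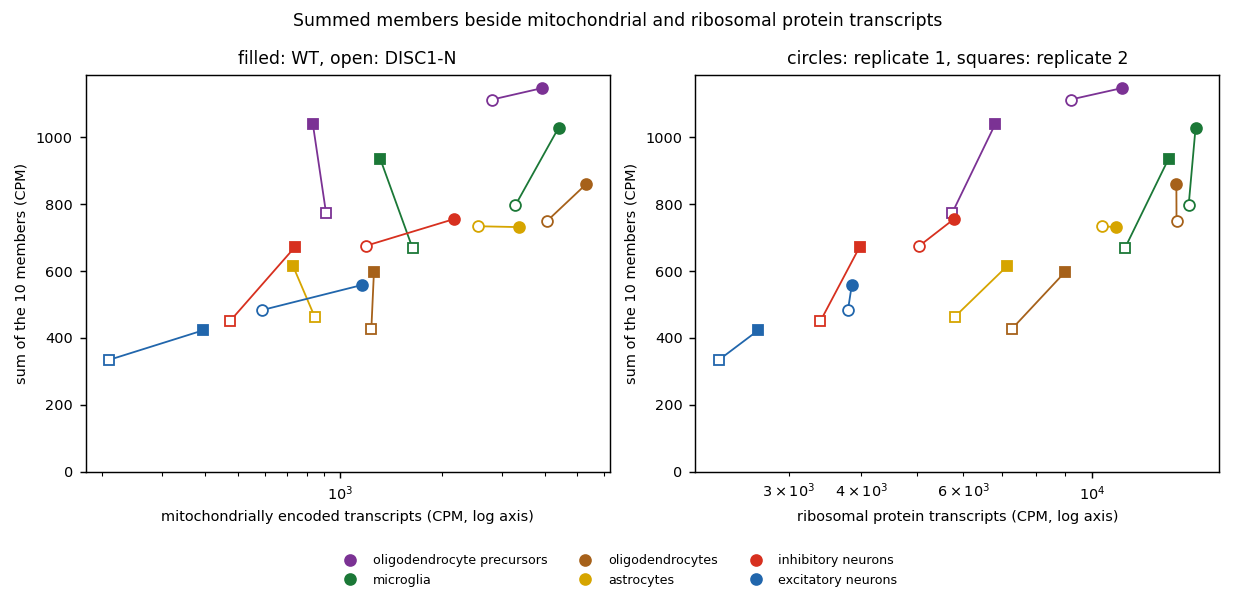
Sum of the 10 genes in CPM (y axis, from 0) against summed mitochondrially encoded (left) and ribosomal protein transcripts (right) in CPM, on log x axes, per class and library. Lines join the WT (filled) and DISC1-N (open) library of a replicate number. In both neuron classes the open point lies lower on both axes. In replicate 1 glia it lies further left for mitochondrial transcripts. In replicate 2 precursors, microglia and astrocytes it lies lower for the 10 genes and further right for mitochondrial transcripts.

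Levels also differed with the replicate number. Hspa5, Calr and Canx were higher in replicate 1 than in replicate 2 in all 6 classes and both genotypes, with ratios within WT of 1.12 to 2.06 for Hspa5 and 1.49 to 2.45 for Calr. Canx spanned 1.04 to 1.54. Ern1 went the other way, lower in replicate 1 in 5 of 6 classes in both genotypes (ratios within WT of 0.539 to 0.849). Replicate number, software version and mitochondrial share move together here and cannot be told apart.

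Across the 24 sums of 6 classes and 4 libraries, on log2(CPM + 1), the 10 genes tracked each other to different degrees. Pairwise Pearson correlations over the 45 pairs ran from -0.19 to 0.90, with a median of 0.55. The sums share libraries and depth, so these are descriptions. Of 7680 other genes with a mean of at least 20 CPM, those most like the mean profile of the 10 were Tmbim6 (0.90), Spcs2 (0.88), Mesd (0.88), Adprh (0.88) and Erp29 (0.88). Tmbim6 encodes an ER membrane protein, Spcs2 a signal peptidase subunit, Mesd an ER chaperone for LDL receptor family members, and Erp29 an ER folding factor. For Hspa5 alone they were Bsg (0.92), Itm2c (0.90), Tmem147 (0.87), Lrpap1 (0.86) and Nfe2l1 (0.86). With library means taken out, none of the 5 genes named for the mean profile remained among its 5 most like, and Bsg and Itm2c remained for Hspa5.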

How the data were processed

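Nuclear RNA of mouse basolateral amygdala was profiled by droplet single-nucleus RNA-seq in 4 libraries, 2 per genotype. The deposited files hold UMI counts per gene and nucleus, which the authors made with Cell Ranger, version 7.0.0 for replicate 1 and 6.0.2 for replicate 2 per the file headers (the submitters' processing notes name 7.0.0), on mm10; whether intronic reads were counted is not given in the sources used here. From the counts, nuclei below 500 genes or above 5% mitochondrial UMIs were dropped, the likeliest doublets by Scrublet score were taken out (0.8% per 1000 nuclei), and classes were gated by a Poisson likelihood over marker genes, requiring at least 2 markers.

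Counts were summed per class or subtype and library (at least 20 nuclei) and fitted with edgeR 4.0.16 (R 4.3.3, quasi-likelihood, TMM, filterByExpr with a minimum count of 10, Benjamini-Hochberg adjustment over all genes tested, threshold 0.05), the scripts having been tested on simulated data. Class, subtype and Wfs1 contrasts had library as a block and genotype fits did not. Each SE is the size of the log2 difference divided by the square root of the test's F statistic, not a separate estimate. Replicate number equals software version, so it was added as a batch term (the replicate block). Deviations from the genotype means of same-numbered libraries correlated at 0.41 to 0.67 over genes. Alternatives used DESeq2 1.42.0, limma-voom 3.58.1, other filters, gates, scalings, depths and clusters (scanpy 1.11.5, leidenalg 0.10.2), and left out each library.

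The 10 genes and the other lists were chosen with earlier results of these data known. All 10 are named. Of the other lists, genes among the 3 of lowest p in a comparison are named, or all that were called where there were few, and the 5 genes most like the mean profile or Hspa5. Promoter sequences are RefSeq's (GRCm38.p6). Of 32285 gene identifiers, 32158 matched GENCODE vM21. Per class depth is the summed UMIs, and precision rests on 2 libraries per genotype.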

Additional observations from a re-analysis of the deposited data

How the results depend on the processing

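Genotype calls in neurons depended on the replicate block. Without it, 0 of the 10 genes were called in each fit of a whole class. With it, 2 were called in excitatory neurons (also with DESeq2 size factors, the stricter gate, sums thinned to the lowest total, or Leiden clusters), and 5 in inhibitory neurons (also 5 with DESeq2 size factors, and 1 with the stricter gate). Of all genes, 48 were called in excitatory neurons with the block, 49 with it and DESeq2 size factors, 100 with the stricter gate, 46 with thinned sums, 35 with clusters, 27 without nuclei above 3 times the class median depth and 8 under 0.1% mitochondrial UMIs. In inhibitory neurons these were 197, 194, 44, 11, 22, 18 and 3. Leaving out each library without the block gave 2 to 41 genes in excitatory and 2 to 17 in inhibitory neurons, none of them among the 10, and Hspa5 in excitatory neurons ranged from -0.93 to 0.0196 on the log2 scale, above 0 only without DISC1-N replicate 2. Subtype tests between genotypes gave 0 to 1 calls, the 1 call without DISC1-N replicate 1 and the block.

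Among classes, WT libraries alone gave 5 of the 10 called in precursors, 2 in excitatory neurons, 1 in microglia and 0 in each of inhibitory neurons, astrocytes and oligodendrocytes. No filter on low counts gave 4 in excitatory neurons, 1 in inhibitory neurons and 0 in oligodendrocytes, and thinned nuclei gave 1 in oligodendrocytes. Without mural cells, 4 were called in inhibitory neurons and 5 in astrocytes, and in astrocytes the stricter gate gave 5 and clusters 4. Leaving out each library gave 6 to 8 in precursors, 5 to 6 in excitatory neurons, 3 to 4 in microglia, 0 to 2 in astrocytes and 0 to 1 in inhibitory neurons and oligodendrocytes. The 2 excitatory subtype calls numbered 0 with WT libraries or no filter, and 0 to 1 with a library left out. With thinned nuclei, the 2 genes fell below the filter on low counts and were not tested. The 9 inhibitory subtype calls numbered 2, with WT libraries or thinned nuclei, and 5 to 8 with a library left out. Calr was not tested with thinned nuclei. Of the 5 genes most like the mean profile, 0 remained with library means taken out and 3 by Spearman's rho, and 2 of 5 for Hspa5 with library means taken out. Where fewer libraries entered, fewer samples carry the test; for the other settings the cause was not tested.

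The comparison within a subtype by Wfs1 UMI was not run, since no subtype had 20 nuclei in each group and library. The fit without mural cells, those without deep nuclei, and the block combined with DESeq2 size factors, the stricter gate or thinned sums were chosen after seeing the data. With 2 libraries per genotype, a lone sample is assumed to vary like the other group when one is left out. Microglial sums held 12 to 38 UMIs of Xbp1 and Ern1 per library, so small differences there were not detectable at this depth.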

Other observations

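Astrocytes and oligodendrocytes had 2 calls each among the 10 genes, and these in the other pathway lists. In astrocytes, 10 of 63 tested genes of the 4 lists were higher and 7 lower than the mean of the other classes, below the 25.2% and 17.7% of all genes called higher and lower there. The higher ones included Dnajc3 (1.45 ± 0.11) and Dnajb9 (1.09 ± 0.19), J-domain partners of BiP, Stt3b, a catalytic subunit of oligosaccharyltransferase (1.01 ± 0.12), and Derl1, of ER-associated degradation (0.68 ± 0.13). The sensor genes Eif2ak3, which encodes PERK (-0.76 ± 0.17), and Atf6 (-0.51 ± 0.14) were lower. In oligodendrocytes 13 of 63 were higher and 5 lower, also below the shares over all genes, 24.4% and 15.6%. Among the higher were Creb3l2, a membrane-bound transcription factor (1.28 ± 0.21), Edem1, of ER-associated degradation (1.05 ± 0.23), Sec62 (0.54 ± 0.11) and Ddit3 (0.61 ± 0.23), and Uggt2 was lower (-1.02 ± 0.20). Values are log2 differences ± SE from the edgeR fit over classes.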
